A study of Mus musculus with 16 samples.

Results

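The comparison set Ba/F3 cells carrying an inducible FOXO4 at 8 h of induction against the same cells at 2 h. It used the 8 of the 16 arrays of the series that carry the source labels of the FOXO4 line at these times, 4 at 8 h and 4 at 2 h. Ba/F3 is a mouse cell line that grows only with interleukin-3, usually described as pro-B. Both groups were clonal cells that stably expressed FOXO4(A3)-ER from an expression plasmid. They were kept in medium with serum, mouse IL-3 and G418 and were stimulated with 4-OHT, either for 8 h or for 2 h. On each array RNA from 1 treated culture was labelled with 1 dye and the line's time 0 pool with the other. Both times used that pool, so it cancels in the difference between 8 h and 2 h. The other 8 arrays hold the FOXO3(A3)-ER line at 8 h and at 2 h, each likewise against its own time 0 pool. Each line is clonal, so a property of the clone and of its FOXO fusion cannot be told apart. No array held cells without a fusion, or cells kept for the same hours without 4-OHT, so activated FOXO4, 4-OHT itself and time in culture cannot be told apart either. Per the design text, the 4 replicates at each time are independent.

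FOXO factors are forkhead transcription factors that act downstream of phosphoinositide 3-kinase. The kinase PKB, also called AKT, phosphorylates them at conserved sites, which keeps them out of the nucleus while growth factors are present. The name A3 is used for a form that lacks those sites, and fusion to the oestrogen receptor domain makes it wait for 4-OHT. Known FOXO targets slow the cell cycle, promote death of cytokine-dependent blood cells and feed autophagy, the digestion of a cell's own content in lysosomes. The series title places the arrays in work on glutamine metabolism and autophagy under this pathway, and Glul, which encodes glutamine synthetase, is a known target. With only a 2 h and an 8 h time point, the difference between them holds genes that moved late, genes that kept moving and genes that moved early and came back.

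In the values below, a log2 ratio is treated over the time 0 pool, and a log2 difference is 8 h minus 2 h. A gene rose or fell when its Benjamini-Hochberg adjusted p in the limma fit over all 17484 genes was under 0.05, and no other source of adjusted p-values was used for genes. The error of a difference is the SE of the fit (n = 4 arrays per group). The values of single arrays are given with the fitted dye term of the gene taken out. As normalized here, the 2 arrays of a group with the treated RNA in Cy5 and the 2 with it in Cy3 disagreed. Over all genes, FOXO4 arrays of opposite dyes correlated at -0.59 to -0.18 within a group as normalized, and at 0.35 to 0.78 once the dye term was removed. Arrays of the same dye correlated at 0.81 to 0.93 as normalized. In the authors' deposited log2 values, with no dye term taken out here, FOXO4 arrays of opposite dyes correlated at 0.38 to 0.59 at 2 h and 0.76 to 0.78 at 8 h. On the FOXO4 arrays the deposited values correlated with the ratios used here at 0.39 to 0.63. A gene is called dim where 5% or more of the external control spots were brighter. Wherever control spots set such a signal level, 1 of the 14 control types was left out, the 1 with a detectable signal. Centring on the external control spots, an alternative used below, rests on the 144 spots of that 1 type alone.

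Markers of the labelled cell type were checked first. Of 13 B lineage markers tested, 12 were dim in the treated channel on all 8 FOXO4 arrays, and only Cd79b was not. Among the 12 were Cd79a, Pax5, Ebf1, Vpreb1, Igll1 and Rag1. Over all gene probes 26.1% to 41.2% per FOXO4 array were not dim, so most probes were dim on any 1 array. How many of all genes were dim on all 8 arrays was not counted. Of 14 markers of mast cells, basophils and myeloid cells, 8 were dim on all 8 arrays, while Cpa3, the mast cell carboxypeptidase, and Csf1r, the receptor of macrophage colony-stimulating factor, were dim on none. The defining markers of the pro-B type were thus at the level of the control spots, so the cells are called by the name of the line. No B lineage marker rose or fell between 8 h and 2 h.

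The proximal promoters below are shown because they belong to genes named below and hold the forkhead motif GTAAACA or the E-box CACGTG, which MYC and the TFEB family are known to bind. They are RefSeq sequences of build GRCm38.p6, from 250 bases before to 50 after the gene's start, with the motif in capitals on whichever strand it was found. Tspan8 rose late, Tuba8 fell late, and Oas1f and Srsf6 were raised at 2 h and fell after it. They lie at chr10:115817034-115817333, chr6:121210484-121210783, chr5:120847117-120847416 and chr2:162931258-162931557, all on the plus strand.
Tspan8: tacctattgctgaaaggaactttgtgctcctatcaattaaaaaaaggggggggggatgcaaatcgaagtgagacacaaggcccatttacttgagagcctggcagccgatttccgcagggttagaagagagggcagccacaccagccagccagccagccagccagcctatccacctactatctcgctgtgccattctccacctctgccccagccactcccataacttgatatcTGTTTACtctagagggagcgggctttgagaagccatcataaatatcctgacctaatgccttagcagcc
Tuba8: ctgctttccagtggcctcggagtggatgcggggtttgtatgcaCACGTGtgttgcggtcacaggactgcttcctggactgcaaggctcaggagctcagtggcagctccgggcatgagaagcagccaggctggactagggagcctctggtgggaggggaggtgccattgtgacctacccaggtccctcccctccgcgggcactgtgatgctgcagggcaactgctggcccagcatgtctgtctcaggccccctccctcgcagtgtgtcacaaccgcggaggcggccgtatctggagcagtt
Oas1f: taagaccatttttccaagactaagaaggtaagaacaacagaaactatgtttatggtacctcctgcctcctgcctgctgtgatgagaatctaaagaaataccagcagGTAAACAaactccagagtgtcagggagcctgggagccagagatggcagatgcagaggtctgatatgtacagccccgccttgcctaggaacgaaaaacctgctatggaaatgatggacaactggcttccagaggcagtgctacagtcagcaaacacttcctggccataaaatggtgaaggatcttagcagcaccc
Srsf6: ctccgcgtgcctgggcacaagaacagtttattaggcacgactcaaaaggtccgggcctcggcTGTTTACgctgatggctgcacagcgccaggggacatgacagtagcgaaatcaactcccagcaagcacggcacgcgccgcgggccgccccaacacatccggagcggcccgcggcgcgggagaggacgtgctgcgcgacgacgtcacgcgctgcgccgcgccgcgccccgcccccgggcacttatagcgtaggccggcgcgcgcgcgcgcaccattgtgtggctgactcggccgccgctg

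The forkhead motif stood in about the same share of late-rise promoters as of all promoters. GTAAACA stood on either strand in 35 of the 970 promoters found for genes that rose late, or 3.61%, against 959 of all 27025 promoters in the table, or 3.55%. Among genes that fell late it stood in 10 of 580, or 1.72%. Among late rises it stood in 7 of 122 that were already higher at 2 h, or 5.74%. It stood in 22 of 596 not called at 2 h, or 3.69%, and in 6 of 252 that came back up, or 2.38%. The E-box stood in 104 of the 970 late rises, or 10.7%, and in 81 of the 580 late falls, or 14.0%, against 1957 of all promoters, or 7.24%. All promoters here include those of genes not tested on the arrays, and no share was taken over the tested genes alone. These shares are a description of a 300-base window and no enrichment was tested.

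Between 8 h and 2 h 1869 genes were called, 10.7% of those tested. Of these, 1179 rose (6.74%) and 690 fell (3.95%). Large changes were few: a log2 difference of 1 or more was reached by 35 rising and 6 falling genes, or 0.2% and 0.0343% of genes tested. The median difference over all genes was -0.0057. Among late rises, 146 genes had been higher than time 0 at 2 h already, 737 had not been called at 2 h, and 296 had been lower at 2 h and so came back up. Among late falls, 63 had been lower at 2 h already, 511 had not been called, and 116 had been higher at 2 h and came back down. Against time 0, 1538 genes were called at 2 h (8.8%) and 3227 at 8 h (18.5%), where 9.71% of genes tested were higher and 8.75% lower. Centring the arrays on the external control spots left 718 genes called between the times, 546 higher and 172 lower, so the share that rose was 76.0% there against 63.1%. With the arrays centred on their median in place of loess it was 79.6% of 1258.

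**Figure D1:**
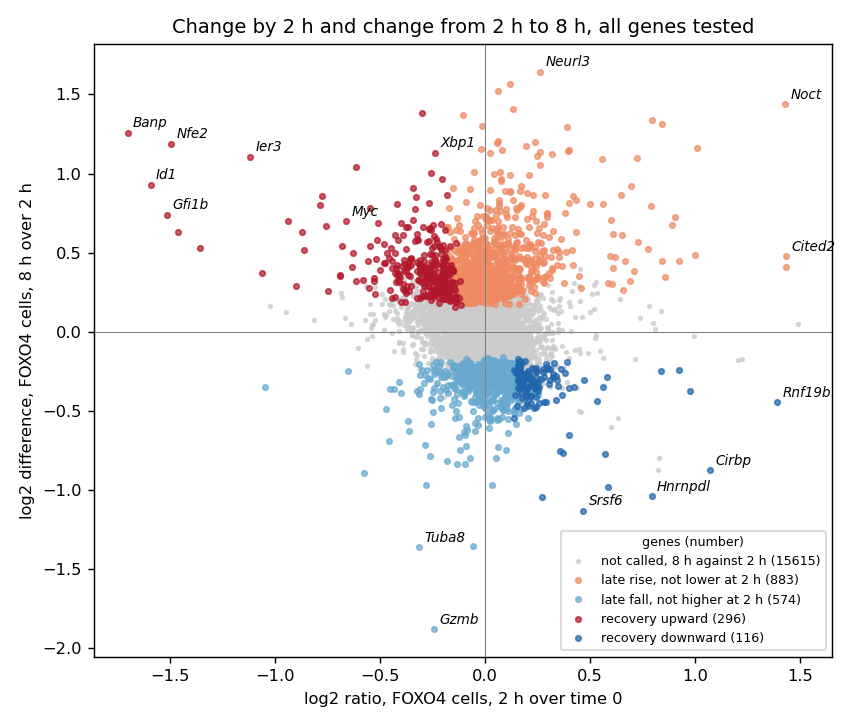
Log2 ratio of FOXO4 cells at 2 h over time 0 (x axis) against the log2 difference between 8 h and 2 h (y axis), 1 point per gene for the 17484 genes tested, coloured by class. The 296 genes that came back up lie at upper left, led by Banp, Nfe2, Ier3 and Id1, and the 116 that came back down at lower right, led by Cirbp, Hnrnpdl and Srsf6. Both axes use the 2 h arrays.

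The largest late rise was that of Neurl3. Neurl3, which encodes a ubiquitin ligase of the neuralized family, had log2 ratios of 2.04, 1.71, 1.93 and 1.93 on the 4 arrays at 8 h, against 0.14, 0.42, 0.11 and 0.38 at 2 h. The 2 times were far apart, with a difference of 1.64 ± 0.079, a fold change of 3.12 (adjusted p = 5.5e-10). Ube2h, which encodes a ubiquitin-conjugating enzyme, had 1.68, 1.82, 1.75 and 1.50 at 8 h, against 0.11, 0.17, 0.07 and 0.13 at 2 h. It sat close to its time 0 level at 2 h and all 4 later arrays lay far above, a difference of 1.57 ± 0.096 (adjusted p = 6.09e-09). Anxa1, the calcium-dependent phospholipid-binding protein annexin A1, had 1.82, 1.35, 1.52 and 1.63 at 8 h, against 0.13, -0.11, 0.17 and 0.07 at 2 h. Its difference of 1.52 ± 0.11 was likewise a change that began after 2 h, since the 2 h arrays lay on both sides of 0.

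Noct, Tspan8 and Lancl3 had started to rise by 2 h and went on rising. Noct, which encodes the clock-controlled phosphatase nocturnin, had log2 ratios of 2.85, 2.80, 3.08 and 2.75 at 8 h, against 1.29, 1.56, 1.51 and 1.36 at 2 h. About the same step was made in the first 2 h and in the following 6 h, and the late difference was 1.44 ± 0.098 (adjusted p = 1.91e-08). A dimmer probe of Noct gave a late difference of 0.01. Tspan8, a tetraspanin of the cell surface whose promoter is shown above, had 2.28, 2.05, 2.05 and 2.15 at 8 h, against 0.85, 0.59, 0.85 and 0.89 at 2 h. Lancl3 rose by 1.32 ± 0.13 after a ratio of 0.84 at 2 h. Trp53inp1, a p53-induced gene whose protein takes part in autophagy, had 1.93, 1.47, 1.85 and 1.48 at 8 h, against 0.18, 0.35, 0.43 and 0.60 at 2 h, where it was dim on 4 of 4 arrays. In each of these genes the 4 arrays at 8 h lay above all 4 at 2 h.

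Mgst2 and Spp1 rose late from different levels at 2 h. Mgst2, a microsomal glutathione transferase, had 1.63, 1.55, 1.55 and 1.42 at 8 h, against -0.01, 0.17, 0.11 and 0.26 at 2 h, a difference of 1.41 ± 0.069 (adjusted p = 5.5e-10). Spp1, which encodes the secreted protein osteopontin, had 1.35, 0.92, 1.10 and 0.97 at 8 h, against -0.32, -0.50, -0.29 and -0.09 at 2 h. Spp1 was thus below time 0 on every array at 2 h and above it on every array at 8 h, a difference of 1.38 ± 0.12 (adjusted p = 2.72e-07). The remaining late rises of the 15 largest were Pdlim5, a scaffold protein of the cytoskeleton (1.37), Ugp2, which makes UDP-glucose (1.30), Banp, which is described with the recovering genes, Tcp11l2 (1.20), Samhd1, which degrades deoxynucleotides (1.20), and the tetraspanin gene Cd53 (1.19). For 15 of the 15 the arrays at 8 h lay above those at 2 h, as they did for 8.74% of all genes tested and for 4.72% with the ratios as normalized. That separation was part of the rule that chose them. Other, dimmer probes gave lower values for Pdlim5 (0.76, 0.35 and 0.00) and Ugp2 (0.51 and 0.05), while the other probe of Samhd1 gave 0.94.

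**Figure D2:**
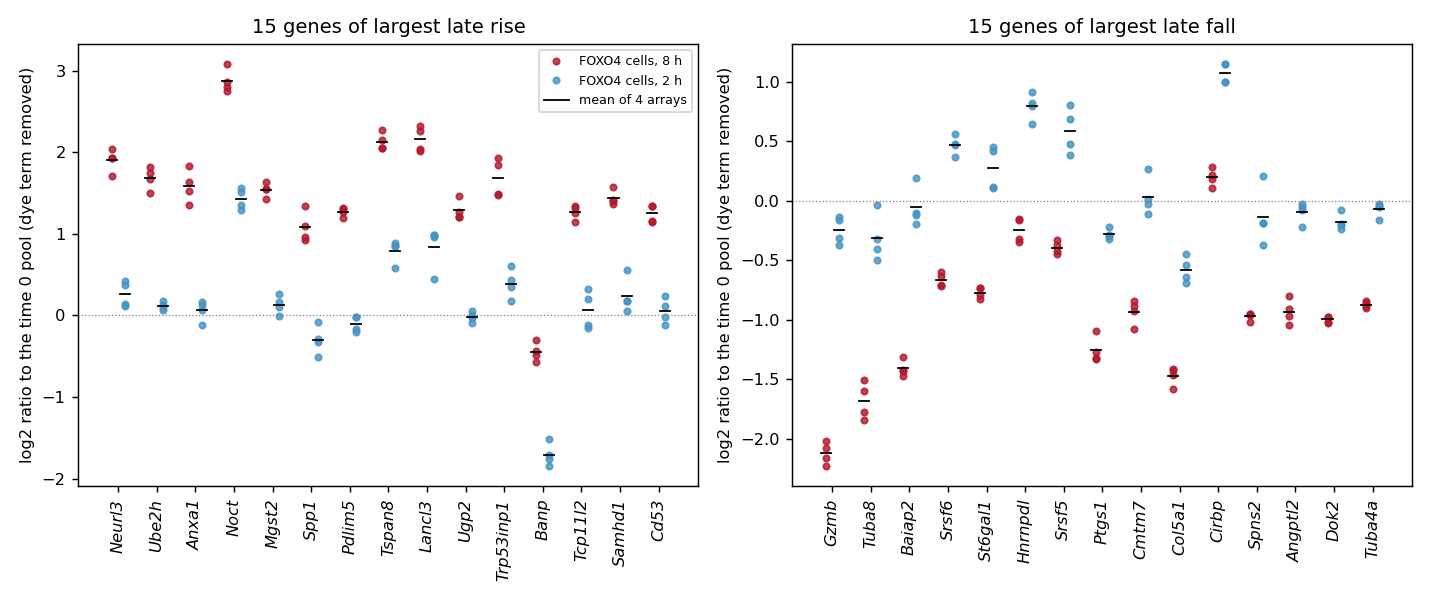
Log2 ratio to the time 0 pool with the dye term removed, for the 15 genes of largest late rise (left) and the 15 of largest late fall (right), in FOXO4 cells at 8 h (red) and 2 h (blue). Points are arrays, 4 per group, and black lines are their means. The groups do not overlap in any gene, which the choice of genes required. Noct, Tspan8 and Lancl3 were already raised at 2 h, and Cirbp, Hnrnpdl, Srsf5, Srsf6 and St6gal1 were above 0 at 2 h before their fall.

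The largest late fall was that of Gzmb, which encodes the protease granzyme B. Its log2 ratios were -2.23, -2.08, -2.16 and -2.02 at 8 h, against -0.13, -0.31, -0.16 and -0.37 at 2 h. Nearly all of its fall came after 2 h, with a difference of -1.88 ± 0.089, or 3.67-fold lower at 8 h (adjusted p = 5.5e-10). Tuba8, an alpha-tubulin gene, had -1.50, -1.84, -1.77 and -1.60 at 8 h, against -0.32, -0.50, -0.41 and -0.04 at 2 h. Baiap2, an adaptor that links membranes to the actin cytoskeleton, had -1.31, -1.47, -1.42 and -1.43 at 8 h, against -0.10, 0.19, -0.12 and -0.19 at 2 h. Both fell by over 1 on the log2 scale, Tuba8 by 1.36 and Baiap2 by 1.35, although a dimmer probe of Baiap2 gave -0.07.

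The other large falls included enzymes, adaptors and extracellular proteins. Ptgs1, which encodes cyclooxygenase 1, fell by 0.97 ± 0.062, and its other probe gave -0.85. Cmtm7 fell by 0.97 ± 0.093, and its other probe gave -0.94. Col5a1, a collagen chain that was already at -0.58 at 2 h, fell by a further 0.89 ± 0.076, and 1 of 6 other probes gave a similar value (-0.75) while the remaining 5 lay between -0.08 and 0.05. Spns2, a transporter of sphingosine 1-phosphate, fell by 0.84, the secreted protein gene Angptl2 by 0.84, the docking protein gene Dok2 by 0.82 and the alpha-tubulin gene Tuba4a by 0.80. Angptl2 was dim on 4 of 4 arrays at 8 h, its dimmer probe gave 0.05, and its call was lost without the dye term. St6gal1, a sialyltransferase, had -0.79, -0.73, -0.83 and -0.73 at 8 h, against 0.11, 0.12, 0.45 and 0.41 at 2 h, so it was above time 0 on every array at 2 h and below it on every array at 8 h. In all 15 the arrays at 8 h lay below those at 2 h, as they did for 6.08% of all genes tested and for 2.88% with the ratios as normalized, again by the rule of choice.

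Genes that recovered upward included several regulators of blood cell growth that are known to follow interleukin-3. With time 0 at 0 by construction, the 296 genes had a median log2 ratio of -0.26 at 2 h and 0.08 at 8 h, with a median difference of 0.37. Against time 0, 26 of them were still lower at 8 h, 177 were not called and 93 were higher. Banp, a DNA-binding regulator of unmethylated CG-rich promoters, had log2 ratios of -1.71, -1.84, -1.51 and -1.75 at 2 h and -0.44, -0.30, -0.49 and -0.57 at 8 h. It came back most of the way but stayed below time 0 on every array. The immediate early gene Ier3 had -1.17, -0.97, -1.19 and -1.16 at 2 h and 0.05, -0.07, -0.03 and -0.00 at 8 h. Ier3 was back at its time 0 level, with a late difference of 1.11 ± 0.063 (adjusted p = 2.81e-09). Both comparisons share the 2 h arrays, so an error in those arrays would itself look like recovery, and a count of such genes is a description. The 412 recovering genes of both directions were 257 without replicate 1 at 2 h and 267 without replicate 2 at 2 h, and the 1538 genes called at 2 h were 1015 without replicate 1 at 2 h.

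Myc showed the same return. Its log2 ratios were -0.78, -0.63, -0.68 and -0.57 at 2 h and 0.11, -0.02, 0.04 and 0.00 at 8 h, a late difference of 0.70 ± 0.066 (adjusted p = 8.4e-07). Cdkn1a, which encodes the CDK inhibitor p21, had -0.76, -0.90, -0.90 and -0.60 at 2 h and -0.03, -0.06, 0.02 and 0.12 at 8 h. Cd69, an early activation antigen, had -0.65, -1.16, -0.55 and -0.76 at 2 h, where it was dim on 4 of 4 arrays, and 0.16, 0.09, 0.07 and -0.01 at 8 h. Myc, Cdkn1a and Cd69 were thus not called against time 0 at 8 h. Id1, whose protein blocks helix-loop-helix factors, had -1.47, -1.62, -1.67 and -1.61 at 2 h and -0.73, -0.57, -0.75 and -0.61 at 8 h. Id1 recovered in part only, as did Nfe2, an erythroid and megakaryocytic leucine zipper factor (-1.50 at 2 h, -0.31 at 8 h), the zinc finger repressor gene Gfi1b (-1.52 and -0.78) and the kinase gene Pim1 (-0.94 and -0.24).

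**Figure D3:**
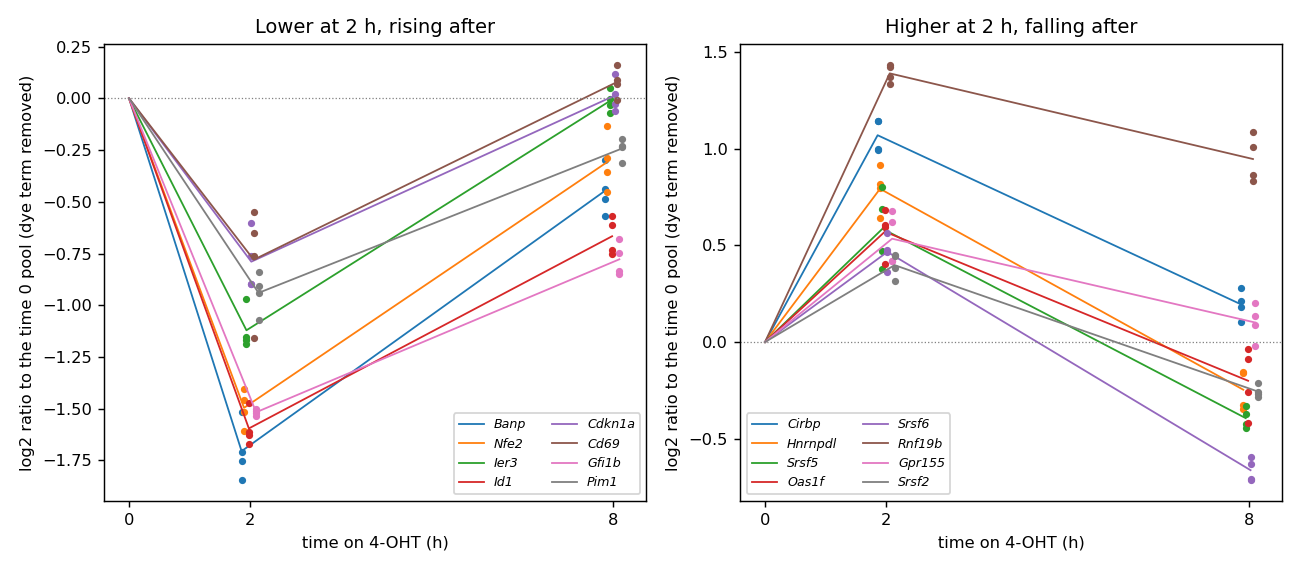
Log2 ratio to the time 0 pool (y axis, dye term removed) at 0, 2 and 8 h on 4-OHT (x axis) for the 8 recovering genes of largest change in each direction in FOXO4 cells. Points are arrays (4 per time, shifted slightly sideways), lines join their means, and time 0 is 0 by construction. On the left Ier3, Cdkn1a and Cd69 end near 0, while Banp, Nfe2, Id1, Gfi1b and Pim1 end below it. On the right Srsf6, Srsf5, Hnrnpdl, Srsf2 and Oas1f end below 0 and Rnf19b ends well above it.

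Among genes that recovered downward, RNA-binding proteins led. The 116 genes had a median log2 ratio of 0.23 at 2 h and -0.09 at 8 h, and 10 of them were still higher than time 0 at 8 h, 67 were not called and 39 were lower. Cirbp, the cold-inducible RNA-binding protein, had log2 ratios of 0.99, 1.00, 1.15 and 1.14 at 2 h and 0.18, 0.28, 0.11 and 0.21 at 8 h. It kept only a small part of its early rise, with a late difference of -0.88 ± 0.061 (adjusted p = 2.5e-08). Srsf6, a splicing factor with arginine and serine repeats whose promoter is shown above, had 0.56, 0.47, 0.47 and 0.36 at 2 h and -0.71, -0.60, -0.71 and -0.63 at 8 h. Srsf6 went beyond its time 0 level, and its difference of -1.13 ± 0.071 was the fourth largest late fall. Hnrnpdl, an RNA-binding protein of the hnRNP D family, had 0.80, 0.64, 0.92 and 0.82 at 2 h and -0.16, -0.32, -0.16 and -0.35 at 8 h. Srsf5 (0.59 at 2 h, -0.39 at 8 h) and Srsf2 (0.40 and -0.26) passed below time 0 in the same way.

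The families of these genes were looked at after their values were seen. Over all genes tested 6.74% rose and 3.95% fell late, and 3.39% rose and 5.41% fell at 2 h. Of 10 Srsf genes 1 rose and 3 fell between 8 h and 2 h, and 3 rose and 1 fell at 2 h against time 0. Of 19 Hnrnp genes 1 rose and 4 fell late, and 4 rose and 0 fell at 2 h. Of the 4 Clk genes, kinases of these splicing factors, none was called late and 2 rose at 2 h. Clk1 was at 1.21 at 2 h and 1.03 at 8 h against time 0, with a late difference of -0.18 that was not called. Most members of these families were therefore not called late, and Srsf2, Srsf5 and Srsf6 were the Srsf genes that fell.

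Rnf19b, Gpr155 and Oas1f completed the 8 genes. Rnf19b, a ubiquitin ligase of the RBR type, had 1.44, 1.37, 1.42 and 1.33 at 2 h and 1.01, 0.83, 1.09 and 0.86 at 8 h. It gave back part of its early rise and was still well above time 0, with a late difference of -0.44 ± 0.080 (adjusted p = 0.000909), and its 2 other probes gave -0.44 and -0.39. Oas1f, of the interferon-inducible oligoadenylate synthetase family, had 0.60, 0.40, 0.68 and 0.60 at 2 h and -0.04, -0.26, -0.09 and -0.42 at 8 h. Gpr155 had a ratio of 0.53 at 2 h and 0.10 at 8 h. The late calls of Oas1f and Gpr155 were lost without the dye term, and a dimmer probe of Oas1f gave 0.00.

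Of the genes raised or lowered at 2 h, most neither went on nor came back beyond the threshold. Of the 592 genes higher than time 0 at 2 h (3.39%), 330 were not called between 8 h and 2 h, and of the 946 lower at 2 h (5.41%), 587 were not called. Cited2, a known FOXO target that acts as a co-regulator of transcription, had 2.17, 1.71, 1.83 and 1.95 at 8 h, against 1.28, 1.69, 1.47 and 1.30 at 2 h. The zinc finger gene Klf6 had 1.94, 1.64, 1.92 and 1.88 at 8 h, against 1.43, 1.35, 1.07 and 1.88 at 2 h. Most of the rise of both came in the first 2 h, and the Klf6 arrays of the 2 times overlapped. Their late calls were weak (adjusted p = 0.0215 for Cited2 and 0.0301 for Klf6): leaving out 1 array at a time lost the call of Cited2 for 4 of the 8 FOXO4 arrays and that of Klf6 for 6.

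Genes that FOXO factors are known to induce rose late or were not called. Of 41 tested, 19 rose, 0 fell and 22 were not called, and their median difference was 0.11. Over all genes 6.74% rose and 3.95% fell, with a median of -0.0057, so few falls would be expected in a list of this size. The list, like those that follow, was chosen with earlier results of these data known. Beside Noct and Trp53inp1 the genes that rose included the stress genes Gadd45a (0.67) and Sesn1 (0.45), the mitophagy gene Bnip3 (0.70), the superoxide dismutase gene Sod2 (0.54), the catalase gene Cat (0.32) and the receptor genes Igf1r (0.71) and Erbb3 (0.52). Without the dye term 8 of the 19 rises were kept and with control-spot centring 14. Gadd45a, Sesn1, Bnip3 and Igf1r lost the call without the dye term, and Cat lost it with control-spot centring. Of 5 other Igf1r probes 2 gave 0.49 and 0.51 and 3 gave -0.02, -0.04 and -0.08, the first of these about as bright as the probe used. Cdkn1a rose only back to its time 0 level. In 21 of the 41 the time 0 channel was dim on all 8 FOXO4 arrays, a share that was not counted over all genes. The pro-apoptotic gene Bcl2l11 rose by 0.31 ± 0.088, but its second probe gave 0.07, it was dim on 4 of 4 arrays at 2 h and it lost its call without 4 of the 8 FOXO4 arrays in turn, without the dye term, with control-spot centring and with the authors' deposited log2 values. Cdkn1b, which encodes the CDK inhibitor p27, had a difference of 0.10 and was dim on all arrays. Foxo1, Foxo3, Foxo4, Bcl6 and Ccnd1 were not called either, although Foxo4 was called without replicate 2 at 2 h. Of 7 genes that FOXO factors are known to repress, 3 rose, namely Id1, Myc and Pim1 as they recovered, and 1 fell, the D-type cyclin gene Ccnd2 (-0.43), of which another probe gave 0.10.

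Of 43 genes of autophagy 13 rose after 2 h, 30 did not pass the test and 0 fell, with a median of 0.12, against 6.74% rising and 3.95% falling over all genes. Map1lc3b, which encodes the ATG8 protein LC3B of the autophagosome membrane, had log2 ratios of 0.88, 0.65, 0.76 and 0.86 at 8 h, against 0.10, -0.13, 0.06 and 0.01 at 2 h. It was at its time 0 level at 2 h and rose by 0.78 ± 0.075 after it (adjusted p = 1.03e-06), and its 2 other probes gave 0.81 and 0.50. The ATG8 gene Gabarapl2 rose by 0.50, the cargo receptor gene Sqstm1 by 0.60 and the mitophagy receptor gene Fundc1 by 0.46. Gabarapl1 (0.11) and the kinase gene Ulk1 (0.20) were not called. Ulk1 was called with the authors' deposited log2 values and without replicate 2 at 2 h. Of 38 lysosome and proton pump genes 11 rose, 1 fell and 26 were not called, with a median of 0.14. The pump subunit genes Atp6v1d (0.66), Atp6v1b2 (0.45) and Atp6v1e1 (0.34) and the membrane protein gene Lamp2 (0.63) rose, and the beta-glucuronidase gene Gusb fell by 0.39. Without the dye term the calls of Sqstm1, Bnip3, Lamp2 and Atp6v1e1 were lost, and 4 of the 13 autophagy rises and 2 of the 11 lysosome rises were kept. With control-spot centring 7 and 5 were kept.

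Glutamine genes did not move as one. Glul had log2 ratios of 0.36, 0.46, 0.36 and 0.35 at 8 h, against -0.04, -0.15, 0.07 and 0.09 at 2 h. The groups did not overlap, and the rise of 0.39 ± 0.070, a fold change of 1.31, came wholly after 2 h (adjusted p = 0.000822). A dimmer probe of Glul gave 0.03, and with the mean of both probes the call was lost. Of 27 genes of glutamine and glutamate metabolism 3 rose and 5 fell, with a median of -0.055. Over all genes tested 6.74% rose and 3.95% fell, with a median of -0.0057. Ctps2, a CTP synthase that uses glutamine, rose by 0.34 and Gfpt1, which starts hexosamine synthesis, by 0.31. Prodh, of proline breakdown, fell by 0.49, and so did the glutathione synthesis genes Gclm (-0.38) and Gclc (-0.30) and the purine synthesis genes Ppat (-0.33) and Gmps (-0.26). The glutamine transporter gene Slc1a5 (-0.24) and the asparagine synthetase gene Asns (-0.16) were not called. Slc1a5 was called with the authors' deposited log2 values, with the filter at the control spots and without replicate 3 at 2 h. Leaving out 1 FOXO4 array at a time lost the call of Ppat for 7 of 8 arrays and that of Gfpt1 for 2. Without the dye term 2 of the 3 rises and 2 of the 5 falls were kept, and with control-spot centring 1 of each. With median centring 3 of the 3 rises and 1 of the 5 falls were kept. The calls lost there were those of Gclm, Gclc, Ppat and Gmps.

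No DNA replication or ribosome biogenesis gene rose after 2 h, and some fell. Of 46 replication and S phase genes 21 fell, 0 rose and 25 were not called, with a median of -0.19, against 3.95% falling and 6.74% rising over all genes. The thymidine kinase gene Tk1 had -0.74, -0.65, -0.69 and -0.59 at 8 h, against 0.08, 0.20, -0.05 and 0.00 at 2 h. The fall of 0.73 ± 0.066 was clear of the spread between arrays. The chromatin regulator gene Uhrf1 fell by 0.54, the licensing factor gene Cdt1 by 0.50 and the helicase subunit genes Mcm5, Mcm7, Mcm2 and Mcm3 by 0.51, 0.45, 0.43 and 0.41, of which the call of Mcm2 was lost without either of 2 arrays. Of 45 genes of ribosome biogenesis 14 fell, 0 rose and 31 were not called, with a median of -0.12, among them the helicase gene Ddx21 (-0.54) and the nucleolar genes Mybbp1a (-0.46), Nop56 (-0.36) and Nop58 (-0.36). Of 51 mitochondrial ribosomal proteins 12 fell and 1 rose, and of 47 cytosolic ribosomal proteins only Rpl22 was called, lower by 0.50. Of the falls, 10 of replication genes, 4 of ribosome biogenesis genes and 1 of mitochondrial ribosomal proteins were kept with control-spot centring, 9, 6 and 1 with median centring, and 9, 4 and 2 without the dye term. The calls of Mcm3 and Nop56 were lost with control-spot centring and without the dye term, and that of Mcm3 with median centring too. That of Mcm2 was lost with median centring and without the dye term. That of Nop58 was lost with either centring, and that of Ddx21 without the dye term. Of 40 mitosis genes 4 rose and 4 fell, and none of these calls was kept without the dye term.

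Of 22 chaperone genes of the endoplasmic reticulum and XBP1 targets 10 rose, 0 fell and 12 were not called, with a median of 0.24, against 6.74% rising and 3.95% falling over all genes. Of the 10, 5 had been lower at 2 h, 4 kept the call with control-spot centring and 5 kept it without the dye term. Xbp1, a transcription factor of the unfolded protein response, had log2 ratios of 0.90, 0.90, 0.97 and 0.79 at 8 h, against -0.15, -0.28, -0.18 and -0.34 at 2 h. It lay below time 0 on every array at 2 h and above it on every array at 8 h, a difference of 1.13 ± 0.080 (adjusted p = 2.8e-08), and a dimmer probe gave 0.52. Hspa5, the main chaperone of the compartment, rose by 0.58 ± 0.084, Dnajb9 by 0.66 and the disulphide isomerase gene Pdia4 by 0.50. Among 18 cytosolic heat shock chaperones 5 rose and 2 fell, and 5 of 5 that rose had fallen by 2 h, among them Dnajb1 (-0.76 at 2 h, with a late difference of 0.67).

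**Figure D4:**
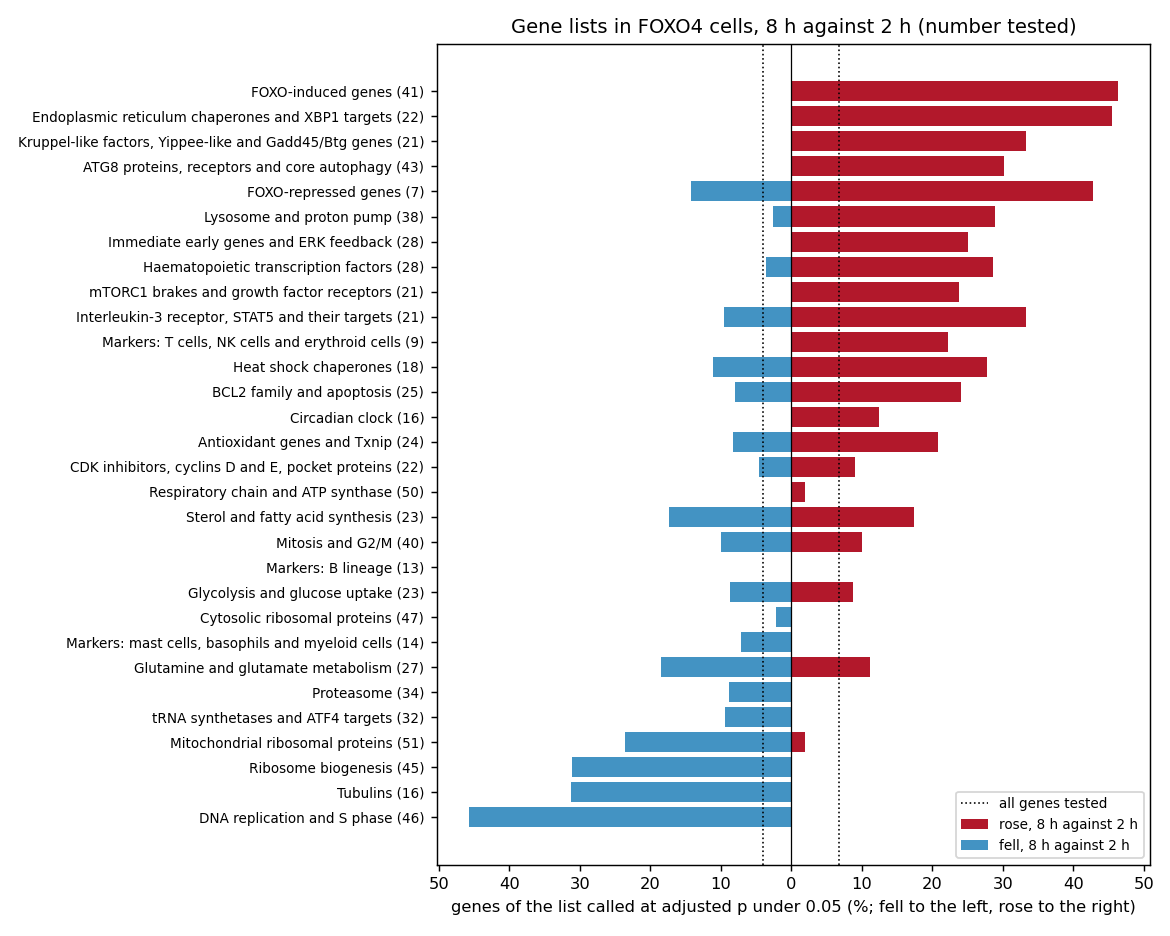
Share of each gene list that rose (red, to the right) or fell (blue, to the left) in FOXO4 cells at 8 h against 2 h, with the number of genes tested in brackets. Dotted lines mark 6.74% rising and 3.95% falling over all genes tested. FOXO-induced genes (19 of 41) and endoplasmic reticulum chaperones (10 of 22) stand at the top, DNA replication genes (21 of 46 fell) at the bottom.

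Among blood transcription factors and cytokine signalling genes, most of those that rose late came back from a fall. Of 28 haematopoietic transcription factors 8 rose and 1 fell between 8 h and 2 h, and 13 had been lower at 2 h than at time 0. Over all genes tested 6.74% rose and 3.95% fell late, and 5.41% were lower at 2 h. Of the 8 that rose, 7 came back from a fall, namely Gfi1b, Nfe2, Id1, Mycn, Myb, Gata2 and Ets2, and only Ikzf1 did not. Mycn, for example, was at -1.46 at 2 h and at -0.83 at 8 h. The corepressor gene Cbfa2t3 was the one that went on falling (-1.05 at 2 h, then by a further 0.35). Of 21 genes of the interleukin-3 receptor, STAT5 and their targets 7 rose and 2 fell, and 5 of the 7 were recoveries: Id1, Myc, Pim1 and the feedback inhibitor genes Cish and Socs1. The calls of Cish (0.26) and Socs1 (0.33) were lost for 7 and 6 of the 8 FOXO4 arrays left out in turn. Jak2, the kinase of that receptor, rose by 0.83 ± 0.081 without an earlier fall. Among 28 immediate early and ERK feedback genes 7 rose and 0 fell, led by Ier3 and the phosphatase genes Dusp5 (1.01) and Dusp6 (0.76). Of 25 BCL2 family and apoptosis genes 6 rose and 2 fell, and none of the 6 rises was kept with control-spot centring or without the dye term. The survival gene Bcl2 fell by 0.72 ± 0.074, and Bbc3, which encodes the death-promoting protein PUMA, rose by 0.45 after -0.44 at 2 h, a call also lost with median centring. The calls of Ets2, Ikzf1, Cish and Socs1 were lost with control-spot centring and without the dye term, and that of Cbfa2t3 with control-spot centring. Those of Ikzf1 and Cish were lost with median centring too.

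The other lists had calls in 1 direction only or in both, against 6.74% rising and 3.95% falling over all genes. Of 16 tubulin genes 5 fell and 0 rose, and of 21 mTORC1 brakes and growth factor receptors 5 rose and 0 fell. Without the dye term 2 of the tubulin falls and 1 of the mTORC1 list's rises were kept. Of 22 CDK inhibitors, cyclins and pocket proteins 2 rose, namely Cdkn1a and Rb1 (0.56), and 1 fell. Of 21 Kruppel-like, Yippee-like and Gadd45 or Btg genes 7 rose and 0 fell, and 2 of the 7 were kept without the dye term. The lists that follow had 1 to 8 calls each and kept 0 to 5 of them without the dye term. Of 24 antioxidant genes 5 rose and 2 fell, of 23 sterol and fatty acid synthesis genes 4 rose and 4 fell, and of 23 glycolysis genes 2 rose and 2 fell. Of 34 proteasome genes 3 fell and 0 rose, of 32 tRNA synthetases and ATF4 targets 3 fell and 0 rose, of 50 respiratory chain genes 1 rose and of 16 clock genes 2 rose. Among markers of other blood cells Prtn3, a neutrophil protease gene, fell by 0.40 and was dim on all 8 arrays, Tfrc, the transferrin receptor gene, rose by 1.04 ± 0.069 and Hba-a1 rose by 0.39. The calls of Prtn3 and Hba-a1 were lost without the dye term, and that of Hba-a1 with control-spot centring too. Of the T cell, NK cell and erythroid markers 4 of 9 were dim on all 8 arrays. For scale, 26.1% to 41.2% of all gene probes per FOXO4 array were not dim. Whether other cell types had a part in any result was not tested.

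The FOXO3 line, measured on other arrays, offered a comparison of the same kind. In it 3804 genes were called between 8 h and 2 h (21.8%), 2058 higher (11.8%) and 1746 lower (9.99%). Of the 1179 late rises of FOXO4 cells, 1015 also rose in FOXO3 cells, which is 86.1% of the FOXO4 list and 49.3% of the FOXO3 list, and 1 fell. Of the 690 late falls 603 also fell, 87.4% of the FOXO4 list and 34.5% of the FOXO3 list, and 1 rose. All 41 FOXO4 genes that moved by at least 1 moved the same way in FOXO3 cells. Both lines entered 1 fit with 1 dye term per gene, and over all genes tested 11.8% rose and 9.99% fell in FOXO3 cells, against 6.74% and 3.95% in FOXO4 cells.

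The sizes differed for some genes. The difference of the late change, FOXO4 minus FOXO3, was called for 578 genes (3.31%), 250 above and 328 below 0. Of the 1179 FOXO4 late rises it was below 0 for 194 and above 0 for 17, and of the 690 late falls it was above 0 for 89 and below 0 for 9, so where a late change differed in size it was mostly the smaller one in FOXO4 cells. Only 37 differences were called with the arrays centred on the external control spots, 69 without the dye term and 178 with median centring.

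Ypel3, of the Yippee-like family, rose by 0.70 ± 0.060 in FOXO4 cells and by 2.01 ± 0.060 in FOXO3 cells, a difference of -1.30 ± 0.085 (adjusted p = 2.21e-07). The late change of Hba-a1 was 0.39 in FOXO4 cells and 1.81 in FOXO3 cells, and that of Hba-a2 was 0.47 and 1.78. These 2 alpha-globin genes are near-identical copies, so their probes may not tell them apart. Erbb3 rose by 0.52 against 1.66 in FOXO3 cells, although its dimmer probes gave 0.12 and 0.03 in FOXO4 cells, and Trp53inp1 by 1.29 against 2.36. Ube2h rose by 1.57 against 2.47, a difference of -0.91 ± 0.14 (adjusted p = 0.000967). For these 6 genes the call of the FOXO4 minus FOXO3 difference held under control-spot centring, under median centring and without the dye term. Among the 15 largest late rises 9 had a difference below 0, but leaving out 1 of the 16 arrays lost that call of Anxa1 in 13 cases, of Lancl3 in 8 and of Neurl3 in 3.

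Map1lc3b rose by 0.78 in FOXO4 cells against 1.58 in FOXO3 cells, and Glul by 0.39 against 1.04, with differences of -0.80 ± 0.11 (adjusted p = 0.00034) and -0.65 ± 0.10 (adjusted p = 0.00118). Both were lost with control-spot centring. In the other direction Mgst2 rose by 1.41 in FOXO4 cells and 0.79 in FOXO3 cells, a difference of 0.61 ± 0.097 (adjusted p = 0.00149). Tfrc, which had dropped to -0.61 at 2 h, rose by 1.04 in FOXO4 cells and by 0.40 in FOXO3 cells. Both kept their call with control-spot centring. Hells, a chromatin remodelling gene of dividing cells, Scd2, a fatty acid desaturase gene, and Nop58, of ribosome biogenesis, had late differences of -0.05, 0.13 and -0.36 in FOXO4 cells, against -0.80, -0.59 and -1.07 in FOXO3 cells. Pbp2 (-0.08 against -0.78) and Ifrd2 (-0.22 against -0.89) completed the 5 genes furthest above 0. Rnf19b fell late in FOXO4 cells (-0.44) and had 0.07 in FOXO3 cells, a difference of -0.52 ± 0.11 (adjusted p = 0.0153) that was lost with control-spot centring, with median centring and without the dye term.

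**Figure D5:**
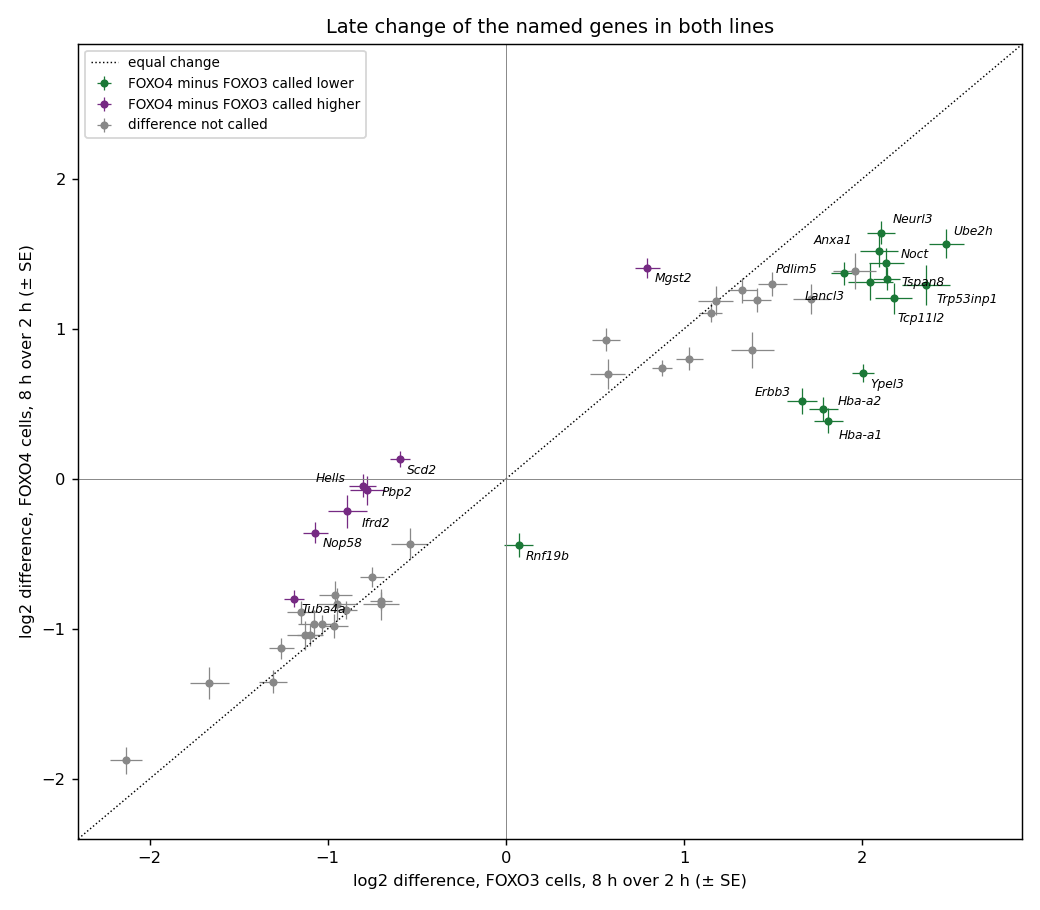
Late change (log2 difference between 8 h and 2 h) in FOXO4 cells (y axis) against FOXO3 cells (x axis) for the genes of largest late rise, late fall, recovery and difference between the lines. Points are fitted differences from 4 arrays per group and bars are SEs. Points on the dotted line changed equally in both lines. Genes in green, such as Ypel3 and Ube2h, have a called difference below 0 and those in purple, such as Mgst2 and Scd2, above 0.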

How the data were processed

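Ba/F3 cells of a FOXO4 and a FOXO3 line were measured on 16 2-colour arrays, 4 per line and time. Per the file headers, a deposited scanner file holds 1 mean intensity per spot and channel, and separately the local background (median, SD), which had not been taken off. Normalized intensities of both dyes were deposited too, and the authors' table of log2 values equals the log2 ratio of treated over time 0 of these. How they were normalized, and the scanner, is not given in the sources used for this comparison.

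The scanner intensities were corrected with normexp (offset 50) and normalized within arrays by loess with control spots at weight 0, in limma 3.58.1 (R 4.3.3). Ratios were turned to treated over time 0. Probes were kept where 1 channel or the other exceeded its local background by 2 SDs on 4 or more arrays, which left out 942 of 31769 gene probes. Of the 31769, 26000 had 1 symbol in the platform annotation, 0 had several and 5769 had none. Against the RefSeq gene table (GRCm38.p6), 15860 of 17888 symbols were current, 1981 were updated and 47 stayed as in the annotation. Each gene was represented by its brightest probe, and 4662 of 17484 genes had over 1. All 16 arrays entered 1 fit (lmFit, eBayes) with 4 group means and a dye term per gene, whose SD over genes was 0.212. Calls are at a Benjamini-Hochberg adjusted p under 0.05. The time 0 pool is 1 sample, so the ratios against it leave out its own spread.

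On the FOXO4 arrays the median treated signal was 104.6 to 161, with 95.8% to 96.9% of gene probes above local background, 26.1% to 41.2% brighter than 95% of the external control spots and 0 to 7 spots saturated. Precision is limited by how many arrays there were, and a difference between 8 h and 2 h had a median SE of 0.071. Of 34992 spots, any 2 arrays of a group had exactly the same deposited Cy5 signal on at most 3. The fit was tested on simulated data.

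The genes named are the 15 largest late rises and late falls whose arrays at 8 h and 2 h did not overlap, 8 recovering genes in each direction, ranked by the smaller of their changes by 2 h and after it, the 5 highest and lowest FOXO4 minus FOXO3 differences, up to 4 members of smallest adjusted p per list, and a set of FOXO, glutamine, cell cycle and autophagy genes. Clone and predicted-gene names were left out of the ranked genes. The non-overlap used values with the dye term removed. Other list members, the splicing families and the gene Clk1 are named to account for counts, and were chosen after their values were seen. The groups, gene lists and members were chosen with earlier results of these data known. No test of a gene list was run. Ccng2, of the set, was not analysed here. Background correction, normalization, starting values, filter, choice of probe, dye term, arrays in the fit, a replicate block and leaving out each array were tried as alternatives.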

Additional observations from a re-analysis of the deposited data

Results flagged for a closer look

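In 10 of 260 groups of 4 FOXO4 arrays, over the 130 genes named, 1 array stood apart: its gap to the nearest other array, divided by the range of the group, was above the 95% critical value of Dixon's test, which chance passes in about 1 of 20 groups. At 8 h the ratio was 0.928 for Glul (0.46 on that array, against 0.35 to 0.36 on the others), 0.923 for Myb (-0.95 against -0.79 to -0.78), 0.93 for Mcm7 (-0.52 against -0.33 to -0.31) and 0.864 for Spns2 (-1.02 against -0.96 to -0.95). At 2 h it was 0.948 for Lancl3 (0.44 against 0.96 to 0.99), 0.867 for Tspan8 (0.59 against 0.85 to 0.89), 0.852 for Ier3 (-0.97 against -1.19 to -1.16) and 0.94 for Ifrd2 (-0.32 against -0.02 to -0.00). It was also 0.89 for Ebf1 (-0.15 against 0.00 to 0.02) and 0.86 for Rpl22 (-0.19 against -0.03 to 0.00).

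The late change differed between the lines for 43 of the named genes, by the limma contrast of FOXO4 minus FOXO3. It was below 0 for 27. These were Hba-a1 (-1.42), Hba-a2 (-1.31), Ypel3 (-1.30), Erbb3 (-1.14), Trp53inp1 (-1.06), Tcp11l2 (-0.97), Ube2h (-0.91), Tspan8 (-0.80), Lancl3 (-0.73), Noct (-0.70), Anxa1 (-0.57), Pdlim5 (-0.53), Rnf19b (-0.52), Neurl3 (-0.47), Bcl2l11 (-0.47), Bbc3 (-0.45), Igf1r (-0.37) and Foxo3 (-0.64), the autophagy and lysosome genes Sqstm1 (-1.00), Map1lc3b (-0.80), Atp6v1d (-0.63), Gabarapl2 (-0.59), Atp6v1e1 (-0.48), Gabarapl1 (-0.47) and Fundc1 (-0.39), and the glutamine genes Glul (-0.65) and Ctps2 (-0.47). It was above 0 for 16: Hells (0.76), Scd2 (0.73), Nop58 (0.71), Pbp2 (0.70), Ifrd2 (0.67), Tfrc (0.65), Mgst2 (0.61), Uhrf1 (0.58), Myb (0.53), Ppat (0.53), Cdt1 (0.48), Cbfa2t3 (0.46), Tuba4a (0.39), Tk1 (0.36), Gclc (0.33) and Gmps (0.27). Leaving out 1 of the 16 arrays lost this call in 12 cases for Ppat and Tk1, in 11 for Bcl2l11, in 10 for Gclc, in 8 for Igf1r and in 7 for Bbc3, Fundc1 and Gmps.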

How the results depend on the processing

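The 1869 genes called between 8 h and 2 h were 601 without the dye term and 718 with arrays centred on the external control spots, and 714 of the 718 were among the 1869. The 1538 genes called at 2 h against time 0 were 1009 with median centring and 480 without the dye term, and with control-spot centring 11.2% of those called were higher, against 38.5%. The 3227 genes called at 8 h against time 0 were 1608 without the dye term, and the share higher was 52.6%, with 30.9% under control-spot and 63.2% under median centring. The 412 recovering genes were 218 with median centring, 148 with control-spot centring and 88 without the dye term. The 578 differences between the lines were 178, 37 and 69 in the same order. In FOXO3 cells the 3804 late calls were 2410 with control-spot centring, of which 44.4% were higher against 54.1%, and 2037 without the dye term. Without the dye term, its effect goes into the spread. The cause of the other shifts was not tested.

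Leaving out 1 FOXO4 array at a time gave 1442 to 1819 late calls, 40 to 45 of at least 1 on the log2 scale, 1015 to 1437 calls at 2 h, 2529 to 3388 at 8 h, and 257 to 424 recovering genes. Leaving out 1 FOXO3 array gave 1761 to 1894 late calls in FOXO4 cells. Leaving out 1 of the 16 arrays gave 389 to 609 differences between the lines and 3414 to 3954 late calls in FOXO3 cells. The count of at least 1, 41 genes, was 31 to 45 under every alternative run. Late calls kept their sign under every alternative, except 1 of 1788 with the filter at the control spots and 2 of 1869 with the mean of a gene's probes. For some settings this was fixed in advance, since each FOXO4 group holds 2 arrays of each dye. Leaving out the dye term or a FOXO3 array, fitting the FOXO4 line alone and adding the replicate block do not change the difference itself.

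Same-numbered FOXO4 arrays at 8 h and 2 h had residuals that correlated at -0.0081 to 0.076. Arrays of the same dye but different numbers had 0.027 to 0.156. With 4 arrays per time, these correlations cannot decide whether the numbers pair the arrays. With the replicate block 1726 genes were called late, 1639 of them among the 1869, with 484 differences between the lines and 3772 late calls in FOXO3 cells. The block was not run for ratios against time 0, so the recovering genes were not counted with it. A slide or scan date block was not run, since none was at hand in the files. Signal limits the dim genes: only 26.1% to 41.2% of gene probes per FOXO4 array were brighter than 95% of the external control spots.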
